A study of Mus musculus with 2 samples.

Results

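The cytochrome P450 family 4 genes described here code for enzymes that hydroxylate the end of a fatty acid chain. The members are Cyp4a10, Cyp4a12a, Cyp4a12b, Cyp4a14, Cyp4a31, Cyp4a32, Cyp4f13, Cyp4f14, Cyp4f15 and Cyp4v3. They are 10 of the 43346 Ensembl genes in the deposited tables, chosen by name and not by a measured value, though with earlier results of these data known. Each was matched by its gene identifier to the GENCODE annotation of mouse assembly GRCm38 (mm10). They carry 27 of the 103639 annotated transcripts. The RNA came from the liver of 1 adult female C57BL/6J mouse at an age of 10 weeks. It was prepared with the RNeasy Lipid Tissue kit and selected for polyA tails. The 2 libraries are technical replicates of that biological replicate, with no treatment or second group, and are called library 1 and library 2. Library 2 was performed in May 2015, the labels give no date for library 1, and a difference between the libraries cannot be told apart from one in date or handling. No sex, age or treatment could be compared. Every mean ± SD is over these 2 libraries and gives technical spread; animals cannot be compared.

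Enzymes of this family sit in the membrane of the endoplasmic reticulum, take electrons from cytochrome P450 reductase and place a hydroxyl group on the terminal carbon of a fatty acid. The product is oxidised by alcohol and aldehyde dehydrogenases to a dicarboxylic acid, which peroxisomes shorten. In liver, Cyp4a10 and Cyp4a14 are textbook targets of the fatty acid receptor PPAR-alpha, the Cyp4a12 genes are known as male-biased and androgen-dependent, and Cyp4f enzymes act on eicosanoids such as leukotriene B4 and on long fatty acids. Cyp4v3 is the mouse counterpart of human CYP4V2, a fatty acid hydroxylase best known from an inherited disease of the retina.

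The expected counts, which are estimated fragments per gene, summed to 23309905 in library 1 and 19525500 in library 2. Mitochondrial genes held 40.7% of TPM in library 1 and 14.9% in library 2. Together with their nuclear copies they held 61.8% and 25.3%. TPM is the length-normalised relative abundance, which has the same total in each library. The larger share in library 1 therefore lowers the TPM of all other genes there. A TPM of at least 1 was counted as detected, which 9089 genes reached in library 1 and 11371 in library 2. The tissue label was checked on markers, and all 10 hepatocyte markers were detected in both libraries, with a summed TPM of 37126 and 84306. Some markers of other cells were also present. Those of Kupffer cells and macrophages summed to 71.0 and 217 TPM, endothelial markers to 28.2 and 98.9, stellate cell markers to 169 and 159, bile duct markers to 47.8 and 63.2, and erythroid and lymphocyte markers to 141 and 2067. Single genes carried much of the last 3 sums. Dcn had 121 and 118 TPM, and 4 of 7 stellate cell markers were detected in both libraries. Spp1 had 45.9 and 58.0 TPM, and 2 of 5 bile duct markers were detected in both. Among the erythroid and lymphocyte markers 5 of 8 were, with Hba-a2 at 75.3 and 772 TPM and Cd3e at 0.21 and 0.36. Of 6 kidney markers, whose tissue also uses Cyp4a genes, 2 had no count in either library and Kap alone reached 1 TPM, with 22 counts in library 1 and 0 in library 2. In RNA from whole tissue, fewer cells of a type and less RNA per cell cannot be told apart.

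All 10 coding sequences hold the signature of the cytochrome P450 heme pocket, in which a cysteine binds the iron. The search asked for phenylalanine at the first residue, glycine at the fourth and the tenth and cysteine at the eighth. The 30 bases that code for it are printed to show how alike the genes are at the catalytic centre, with the cysteine codon in capitals, 5′ to 3′ on the coding strand. They were read from the GENCODE transcripts.

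Cyp4a10: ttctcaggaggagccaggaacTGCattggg
Cyp4a12a: ttctcaggaggagcaaggaacTGCattggg
Cyp4a14: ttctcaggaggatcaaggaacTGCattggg
Cyp4f13: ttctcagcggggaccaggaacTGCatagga
Cyp4f14: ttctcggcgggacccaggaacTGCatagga
Cyp4f15: ttctccgctgggcccaggaacTGCatagga
Cyp4v3: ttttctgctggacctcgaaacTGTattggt

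Cyp4a31 and Cyp4a32 have the same 30 bases as Cyp4a10, and Cyp4a12b the same as Cyp4a12a. Cyp4a10 and Cyp4a14 differ at 2 of the 30 bases, the 3 Cyp4f genes differ from each other at 3 in every pair, and Cyp4v3 differs from the other members at 9 to 11. In 9 of the 10 genes an exon ends after 17 of the 30 bases, whereas in Cyp4v3 it ends after 28. On GRCm38 the stretch of Cyp4a10 lies on the plus strand in exon 11 (chr4:115529502-115529518) and exon 12 (chr4:115532531-115532543). That of Cyp4a14 lies on the minus strand at chr4:115489789-115489805 and chr4:115487299-115487311, and that of Cyp4a12a on the plus strand at chr4:115328986-115329002 and chr4:115331834-115331846. The Cyp4f13 stretch is at chr17:32925324-32925340 and chr17:32924942-32924954 and the Cyp4f14 stretch at chr17:32906049-32906065 and chr17:32905666-32905678, both on the minus strand. The Cyp4f15 stretch is on the plus strand at chr17:32702398-32702414 and chr17:32702789-32702801. The Cyp4v3 stretch is on the minus strand at chr8:45308380-45308407 and chr8:45307107-45307108.

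Likeness between members, here over the whole coding sequence, bears on how well reads can be assigned to single members. Cyp4a12a and Cyp4a12b were identical at 98.5% of aligned coding bases, Cyp4a10 and Cyp4a32 at 97.2%, Cyp4a10 and Cyp4a31 at 96.6%, and Cyp4a31 and Cyp4a32 at 96.0%. Cyp4a14 stood further off, at 74.95% to 75.9% from the other Cyp4a members. Among the Cyp4f members the range was 76.2% (Cyp4f13 and Cyp4f15) to 82.1% (Cyp4f14 and Cyp4f15), and Cyp4v3 was between 46.5% and 49.8% identical to the rest. The plot of coding identity shows the same blocks.

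**Figure D1:**
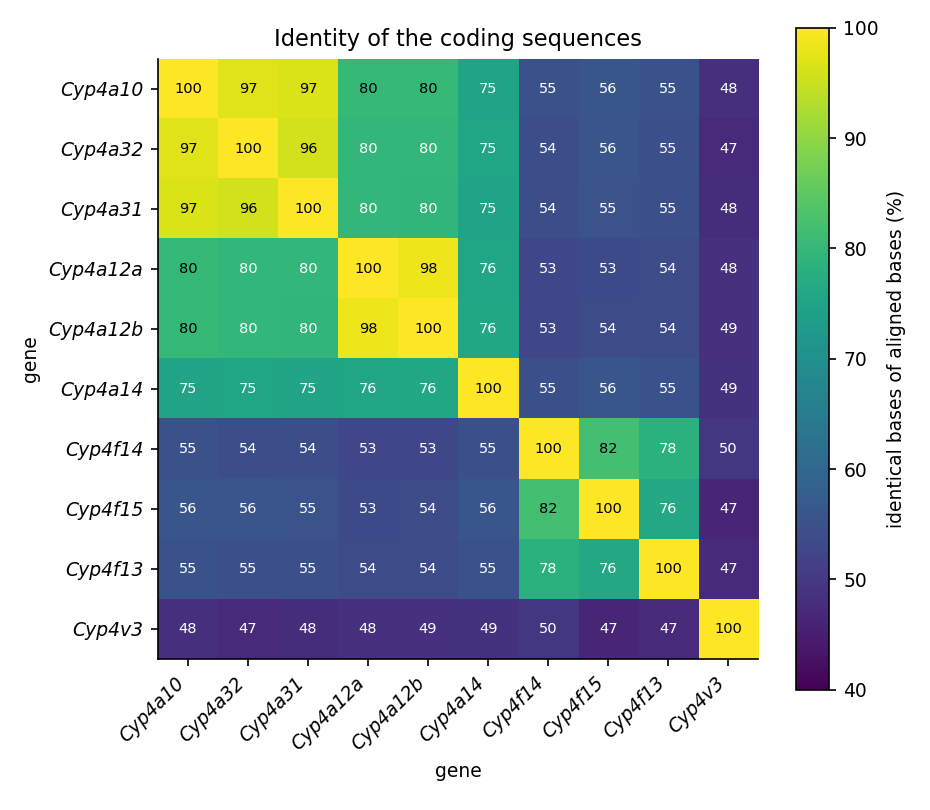
Both axes list the 10 genes, and colour and number give the percent of aligned coding bases that are identical. The block of Cyp4a10, Cyp4a32 and Cyp4a31 and the pair Cyp4a12a and Cyp4a12b stand out at 96.0% to 98.5%, while Cyp4v3 reaches at most 49.8% with any other gene.

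Within their coding sequences the closest copies can be told apart only at scattered bases. For 2 sets the 60-base coding window with the most differences is printed, with each base that varies within the set in capitals. The windows of Cyp4a12a (chr4:115326309-115326314 and chr4:115326628-115326681, plus strand) and Cyp4a12b (chr4:115432561-115432566 and chr4:115432881-115432934, plus strand) differ at 4 of the 60 bases.

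Cyp4a12a: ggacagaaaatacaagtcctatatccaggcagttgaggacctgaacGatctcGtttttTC
Cyp4a12b: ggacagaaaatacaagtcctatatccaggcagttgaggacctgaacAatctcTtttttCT

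The windows of Cyp4a10 (chr4:115519640-115519699), Cyp4a31 (chr4:115565020-115565079) and Cyp4a32 (chr4:115602270-115602329), all on the plus strand, vary at 9 of the 60 bases. Most of these bases set Cyp4a32 apart from Cyp4a10 and Cyp4a31, which share them.

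Cyp4a10: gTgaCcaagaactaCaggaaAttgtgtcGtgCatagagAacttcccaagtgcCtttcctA
Cyp4a31: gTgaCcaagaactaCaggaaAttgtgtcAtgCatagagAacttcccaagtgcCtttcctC
Cyp4a32: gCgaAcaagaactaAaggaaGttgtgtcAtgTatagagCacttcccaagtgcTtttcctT

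Of the 25-base words in the transcripts of Cyp4a32, 31.0% occurred in no other gene. The share was 32.1% for Cyp4a12b, 32.9% for Cyp4a12a, 47.7% for Cyp4a10 and 62.4% for Cyp4a31. It was between 88.9% and 95.7% for Cyp4a14, the 3 Cyp4f members and Cyp4v3. Counts of the first 5 genes could therefore depend on how the authors' estimate divided shared reads. The deposited posterior SD of the gene counts, which measures that division within 1 library, was at most 4.11 counts for these 5 genes (1.22 to 3.93 for Cyp4a31 and Cyp4a32, and 1.01 to 1.40 on 8.06 to 27.9 counts for Cyp4a12a and Cyp4a12b). The largest among the members was 15.6 for Cyp4v3 in library 1. There it was 17.4 on 42.45 counts for a transcript under the Cyp4v3 gene identifier that a later annotation names Klkb1-201. For Cyp4v3-201 in that library it was 2.8.

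The Cyp4a members made up most of the family's RNA in this female liver, and 2 of them nearly all of that. Cyp4a10 (ENSMUSG00000066072.9, chromosome 4, 115518264 to 115533649, plus strand) had 711 TPM in library 1 and 901 in library 2, a mean of 806 ± 134 (SD, n = 2). Cyp4a14 (ENSMUSG00000028715.2, chromosome 4, 115486200 to 115496142, minus strand), also a fatty acid hydroxylase induced through PPAR-alpha, had 574 and 686 TPM (630 ± 79.0). The ranges of the 2 genes did not overlap, and the ratio of Cyp4a10 to Cyp4a14 was 1.24 in library 1 and 1.31 in library 2. By mean TPM they ranked 93rd and 120th of 21461 nuclear protein-coding genes, and 9th and 13th among 100 cytochrome P450 genes. Together they held 83.3% of the members' TPM in library 1 and 74.95% in library 2.

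The near copies of Cyp4a10 on the same chromosome were much lower. Cyp4a32 (ENSMUSG00000063929.6, 115600969 to 115621602, plus strand) had 9.31 and 17.6 TPM from 205 and 329 counts (13.4 ± 5.8 TPM). Cyp4a31 (ENSMUSG00000028712.8, 115563649 to 115579015, plus strand) had 8.31 and 11.9 TPM from 432 and 280 counts (10.1 ± 2.6 TPM). Cyp4a10 thus exceeded Cyp4a32 by 76.4 and 51.3 times and Cyp4a31 by 85.6 and 75.5 times in libraries 1 and 2. The order of Cyp4a32 and Cyp4a31 was the same in both libraries, but their ranges overlapped.

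The 2 genes known as male-biased, Cyp4a12a and Cyp4a12b, were under 1 TPM in both libraries. Cyp4a12a (ENSMUSG00000066071.6, chromosome 4, 115299046 to 115332815, plus strand) had 0.55 TPM from 27.9 counts in library 1 and 0.53 from 18.2 in library 2. Cyp4a12b (ENSMUSG00000078597.2, chromosome 4, 115411624 to 115439034, plus strand) had 0.16 TPM from 8.06 counts and 0.35 from 11.8, and overlaps the pseudogene Gm12837 on the opposite strand; whether counting used strand is not known, so their reads in the overlap cannot be told apart. Since the 2 genes share most of their sequence, their sum is the firmer value: 36 counts and 0.71 TPM in library 1, and 30 counts and 0.88 TPM in library 2. A count of 3, taken as the limit that no read would allow, corresponds to at most 0.0893 TPM for either gene in either library, so both lay above that limit. There is no male liver in the series, and the sex difference itself was not measured.

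The 3 Cyp4f members differed most between the libraries, each being lower than Cyp4v3 by mean TPM. Cyp4f14 (ENSMUSG00000024292.10, chromosome 17, 32905070 to 32917342, minus strand), which codes for a leukotriene B4 hydroxylase, had 50.2 TPM in library 1 and 205 in library 2 (128 ± 110, SD, n = 2). Cyp4f15 (ENSMUSG00000073424.5, chromosome 17, 32685627 to 32703352, plus strand), another eicosanoid hydroxylase, had 19.3 and 110.0 TPM (64.7 ± 64.1). Cyp4f13 (ENSMUSG00000024055.10, chromosome 17, 32924688 to 32947402, minus strand) had 7.10 and 50.3 TPM (28.7 ± 30.5). In each of the 3 genes the value in library 2 was at least 4.09 times that in library 1, and the SDs were close to or above the means. The Cyp4f members therefore held 4.96% of the members' TPM in library 1 and 17.3% in library 2. Within the libraries the order Cyp4f14, Cyp4f15, Cyp4f13 was the same.

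Cyp4v3 (ENSMUSG00000079057.3, chromosome 8, 45304944 to 45333216, minus strand) was, with Cyp4a12a, one of 2 members whose TPM was lower in library 2. It had 163 TPM in library 1 and 134 in library 2 (149 ± 20.1, SD, n = 2). Its place relative to Cyp4f14 turned between the libraries, with a ratio of 3.25 in library 1 and 0.655 in library 2. Its locus overlaps Gm45753 on the same strand, and its deposited gene identifier also holds a transcript that the later annotation names Klkb1-201, which took 0.44% and 0.12% of the gene's TPM.

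Ordered by mean TPM, the members ran Cyp4a10, Cyp4a14, Cyp4v3, Cyp4f14, Cyp4f15, Cyp4f13, Cyp4a32, Cyp4a31, Cyp4a12a and Cyp4a12b. Neighbours from Cyp4v3 down to Cyp4a31 had overlapping ranges over the 2 libraries. Within each library, however, Cyp4f14 exceeded Cyp4f15 by 2.60 and 1.87 times and Cyp4f15 exceeded Cyp4f13 by 2.72 and 2.19 times. In library 2 alone Cyp4f14 came before Cyp4v3, and in library 1 alone Cyp4f13 came after both Cyp4a32 and Cyp4a31. Summed over all 10 members, TPM was 1543 in library 1 and 2117 in library 2, which is 0.154% and 0.212% of all TPM and 6.24% and 7.75% of the TPM of cytochrome P450 genes. Leaving out mitochondrial genes and their nuclear copies turned that order, with 0.404% of the remaining TPM in library 1 and 0.284% in library 2.

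**Figure D2:**
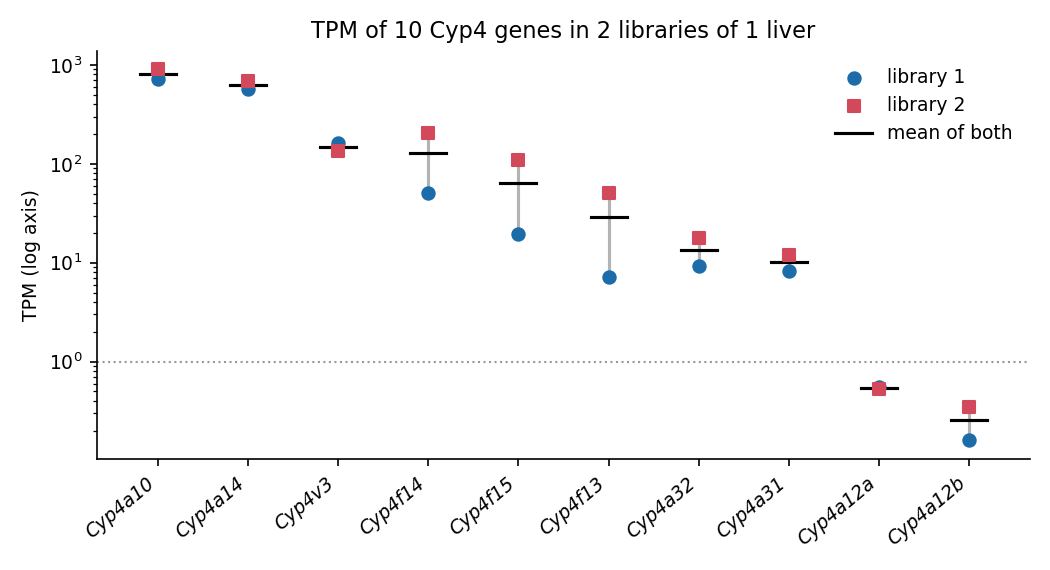
TPM of each gene on a log axis, with a circle for library 1, a square for library 2, a short bar for their mean and a dotted line at 1 TPM. Cyp4a10 and Cyp4a14 lie highest with close values, the 3 Cyp4f genes are spread widest, and Cyp4a12a and Cyp4a12b are under 1 TPM in both libraries.

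Of the 10 other Cyp4 genes looked up, few were detected in this liver. Cyp4b1, which codes for an enzyme of shorter fatty acids and xenobiotics, had 5.28 and 10.8 TPM. Cyp4f17 had 0.55 and 6.16 TPM and Cyp4f16 0.87 and 2.55. Cyp4a29, Cyp4a30b, Cyp4f37, Cyp4f40 and Cyp4x1 had no count in either library, where 3 counts would correspond to at most 0.145 TPM. Members and close relatives in the same gene clusters thus spanned from no count to 31206 counts in library 1, the value of Cyp4a10.

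The comparison of the libraries asked how far the members can be trusted as levels. Counts were scaled with TMM, a factor computed on the assumption that most genes do not differ, and the 2 counts of a gene were set against each other in an exact binomial test, two-sided, with Benjamini-Hochberg adjustment over all 12728 genes with at least 20 counts in sum. Calls needed an adjusted p below 0.05 together with a log2 fold (library 2 over library 1) of 1 or more in either direction. What is compared are the reads of 2 libraries, not conditions. Library 2 had 3 members called higher and 1 called lower, and 6 had no call, where 56.5% of all tested genes were called, 32.7% higher and 23.8% lower. A share of 4 in 10 members is therefore near the background, and the median log2 fold was −0.15 for the members and 0.04 for all tested genes.

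All 3 Cyp4f members were higher in library 2. Cyp4f13 rose from 222 to 1116 counts, with a log2 fold of 2.00 (95% counting interval 1.80 to 2.22), Cyp4f15 from 755 to 2788 counts (1.56, 1.45 to 1.68) and Cyp4f14 from 2315 to 6396 counts (1.14, 1.07 to 1.21). Cyp4v3 fell from 13432 to 7502 counts, with a log2 fold of −1.16 (−1.20 to −1.12). These intervals cover counting error only. The calls of all 3 Cyp4f members held under DESeq2 size factors, total-count scaling and both other count minimums, whereas Cyp4v3 was not called under total-count scaling (−0.58), which shifts the median of all tested genes to 0.62.

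None of the Cyp4a members was called. Cyp4a10 (31206 and 26709 counts) had a log2 fold of −0.55 (−0.57 to −0.52) and Cyp4a14 (30058 and 24066 counts) one of −0.64 (−0.67 to −0.62), both smaller than the fold asked for. Cyp4a31 was close to that fold at −0.95 (−1.17 to −0.73). Its TPM was higher in library 2 although its scaled count was lower, and the same held for Cyp4a10 and Cyp4a14. Over all genes the ratio of TPM had a median log2 fold of 0.88. The effective length given for Cyp4a31 was 2280 bases in library 1 and 1523 in library 2. It was 1925 and 1921 for Cyp4a10 and 2298 and 2275 for Cyp4a14. Cyp4a32 stood at 0.36 (0.10 to 0.62). Cyp4a12a had a log2 fold of −0.94 with an interval from −1.90 to −0.06 and an adjusted exact binomial p of 0.032, and Cyp4a12b one of 0.25 from −1.15 to 1.76 (adjusted exact binomial p = 0.84), so that at this depth a difference in either direction could not be seen for the latter.

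The called members stood at both ends of the family's range of base composition. The Cyp4f members had the highest GC content of the family, at 52.2% for Cyp4f15, 52.5% for Cyp4f14 and 54.5% for Cyp4f13. Cyp4v3 had the lowest, at 44.3%, and the Cyp4a members lay between 45.7% (Cyp4a14) and 49.5% (Cyp4a32). The median over all tested genes was 49.8%. The GC value of a gene is a mean over its transcripts with their TPM here as weights, so it depends in part on the libraries compared.

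Set beside the genes within 1 percentage point of the same GC content, the 4 called members lay on the same side as the median of those genes. Around Cyp4f13, 75.5% of 1276 genes were called higher in library 2, with a median log2 fold of 1.66 against 2.00 for Cyp4f13 itself. Around Cyp4f14 the share called higher was 45.2% and the median 0.91, and around Cyp4f15 39.5% and 0.79. The members themselves had 1.14 and 1.56. Around Cyp4v3, 53.1% of 1154 genes were called lower, with a median of −1.03 against −1.16. Around Cyp4a10 and Cyp4a14 the medians were −0.42 and −0.78, against −0.55 and −0.64. Around Cyp4a31 and Cyp4a12a they were −0.43 and −0.60, against −0.95 and −0.94, and around Cyp4a32 0.02 against 0.36. Cyp4a12b lay on the other side of 0 from its neighbours, at 0.25 against −0.61, which is within its counting interval. When a smooth curve of fold on GC content was subtracted, no member was called, and 14.4% of 12070 genes with a GC value were. The folds then were 0.33 for Cyp4f13, 0.22 for Cyp4f14, 0.74 for Cyp4f15 and −0.16 for Cyp4v3.

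**Figure D3:**
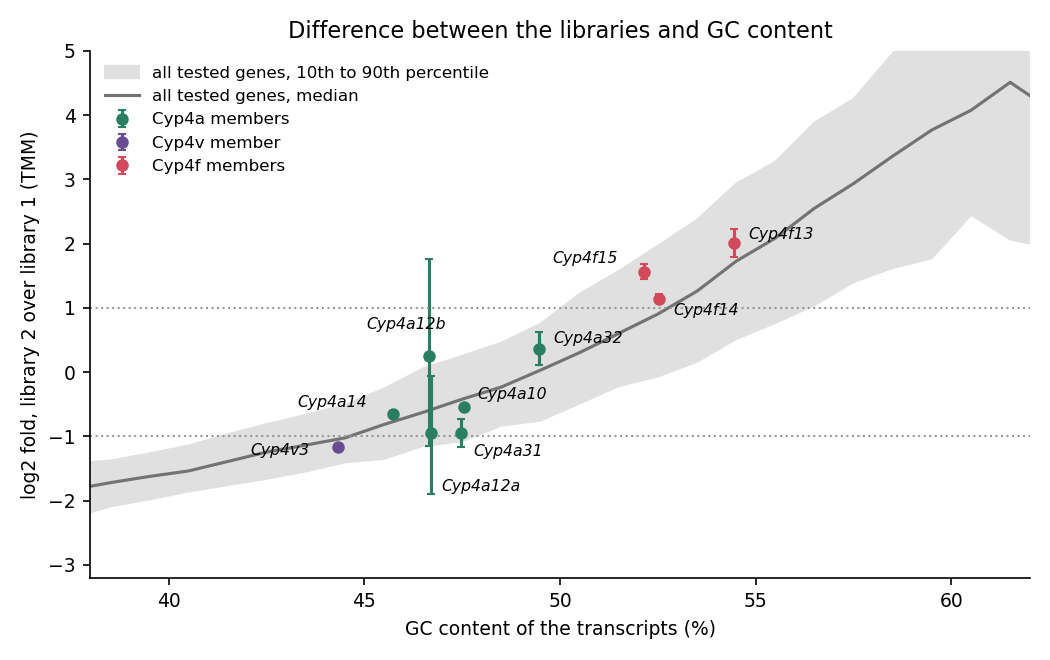
The x axis gives the GC content of each gene's transcripts in percent and the y axis the log2 fold of library 2 over library 1 with TMM scaling, with 95% counting intervals. The grey line and band are the median and the 10th to 90th percentile of all tested genes in classes of 1 percentage point, and dotted lines mark a log2 fold of 1 in size. The Cyp4f members lie to the upper right at 52.2% to 54.5% GC and Cyp4v3 to the lower left at 44.3%, along the band of all genes.

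The share of all genes called, against which the members' calls are to be read, also depends on the scaling. With DESeq2 size factors it was 56.8%, 32.3% higher and 24.5% lower. Total-count scaling called 49.3% of genes, 41.9% higher and 7.49% lower, and 3 members, all higher. The ratio of TPM, taken as a fold without a test, put 50.7% of genes past the fold, 47.4% higher and 3.24% lower, and 4 members, all higher, with Cyp4a12b the fourth. After the GC curve the split was 6.98% higher and 7.39% lower.

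**Figure D4:**
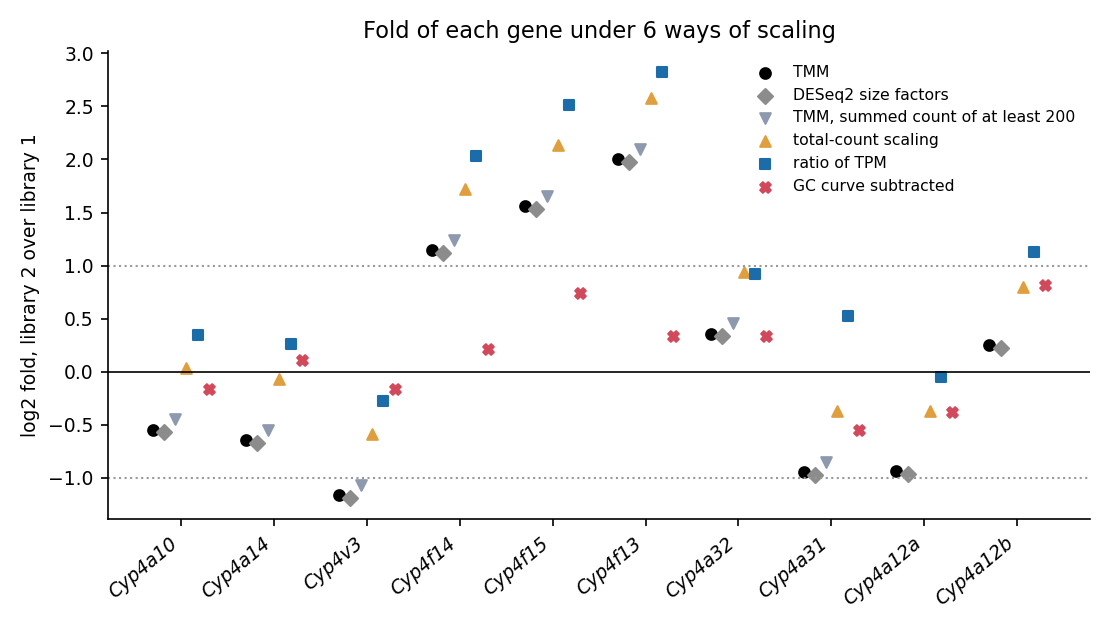
The log2 fold of each gene under 6 ways of scaling, 1 symbol for each, with dotted lines at a log2 fold of 1 in size. The Cyp4f genes lie above 1 under every setting shown but the GC curve, where they fall to between 0.22 and 0.74, and Cyp4a10, Cyp4a14 and Cyp4a31 change sign between settings.

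The libraries also differed in which transcripts the authors' estimate assigned to a gene. For the most abundant members the leading transcript was nearly the whole gene: Cyp4a10-201 took 97.3% of the gene's TPM in library 1 and 98.8% in library 2, Cyp4a14-201 99.3% and 98.3%, and Cyp4v3-201 99.6% and 99.9%. Cyp4f14-201 took 99.7% and 85.3%. The rest was Cyp4f14-202, which has an extra first exon and the same coding length of 1572 bases.

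Shares in Cyp4f13 and Cyp4f15 moved further, by 45.2 points for Cyp4f13-201 and 40.6 for Cyp4f15-201. Cyp4f13-201, the full-length coding transcript of 1569 coding bases, had 39.1% in library 1 and 84.3% in library 2. Its counts were 99.2 with a posterior SD of 20.2 in library 1 and 1023 with one of 14.5 in library 2. Cyp4f13-203, annotated as subject to nonsense-mediated decay, had 20.7% and 0%, and Cyp4f13-207, annotated as a retained intron, 26.8% and 4.81%. Transcripts of Cyp4f13 labelled protein-coding amounted to 3.21 TPM in library 1 and 43.4 in library 2. In Cyp4f15 the leading transcript changed, from Cyp4f15-204 (54.4% and 11.3%) to Cyp4f15-201 (29.8% and 70.4%). Both transcripts are coding and share the heme-pocket stretch printed above, and exon 10 is 155 bases in Cyp4f15-204 and 134 in Cyp4f15-201. The posterior SD of their counts was 53.5 and 52.8 for Cyp4f15-201, on 250 and 2279 counts.

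Cyp4a31 and Cyp4a32, the low copies of Cyp4a10, also changed. In Cyp4a31 the full-length transcript Cyp4a31-202 (1527 coding bases) had 59.2% in library 1 and 14.5% in library 2, and Cyp4a31-201 (1329 coding bases) 40.8% and 46.1%. Exon 3 of Cyp4a31-202, of 45 bases (chr4:115565671-115565715), is missing from Cyp4a31-201, and its exon 11 of 77 bases is cut to 60 there. Of the annotated coding sequences of this gene the heme-pocket signature was found in that of Cyp4a31-202 alone. Transcripts with it therefore came to 4.92 TPM in library 1 and 1.72 in library 2. These values rest on 261 counts with a posterior SD of 32.1 in library 1 and 61.8 counts with one of 24.4 in library 2. The remaining share of library 2 was mostly the short transcript Cyp4a31-204, at 33.0% from 20.99 counts with a posterior SD of 5.05. Cyp4a32-201, the coding transcript, had 52.1% and 83.5%, and Cyp4a32-202, annotated as a processed transcript without a coding sequence, 47.9% and 16.5%.

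Such changes were common in these libraries. Among 5129 genes with at least 2 transcripts and a mean TPM of at least 5, the share of the leading transcript changed by a median of 14.2 points. It changed by at least 20 points in 40.6% of them, and 31.9% had another leading transcript in library 2. Shares in percent rest on 1 estimate per library and were not tested.

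**Figure D5:**
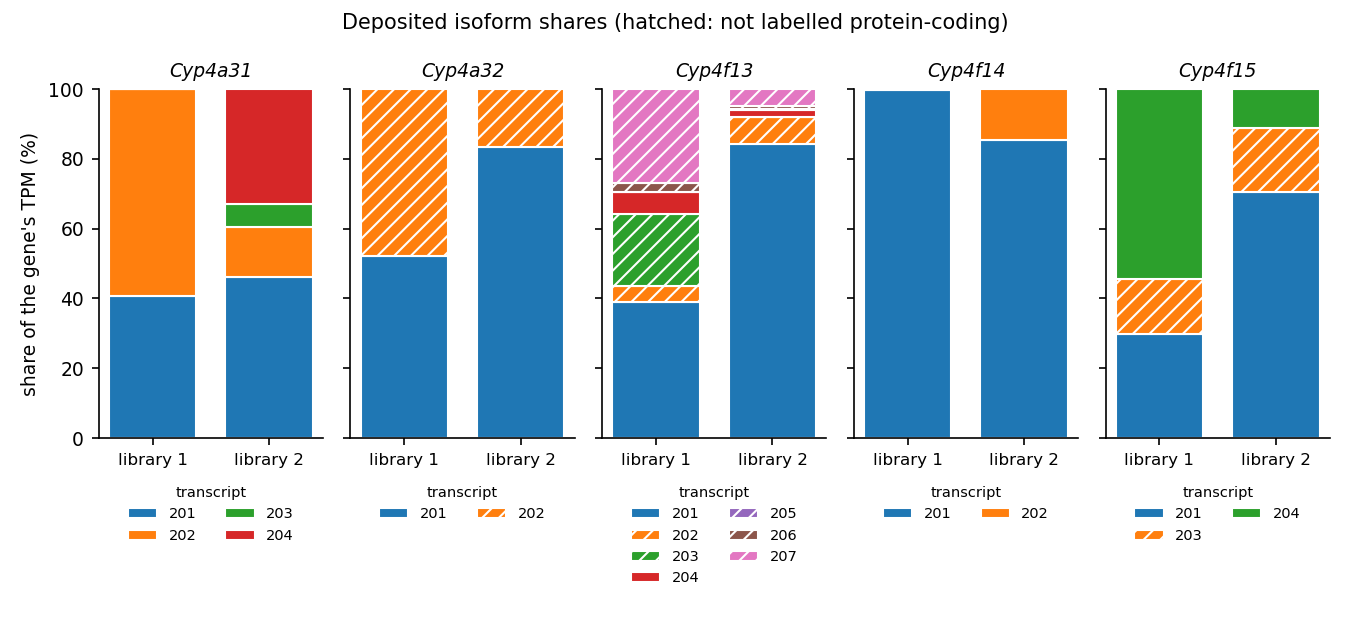
Stacked bars of the deposited isoform share in percent of the gene's TPM, for 5 genes in library 1 and library 2, with hatching for transcripts not labelled protein-coding. Cyp4f13-201 goes from 39.1% to 84.3%, Cyp4f15-201 from 29.8% to 70.4% and Cyp4a32-201 from 52.1% to 83.5%, while Cyp4a31-202 goes from 59.2% to 14.5%.

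The partners of these enzymes were present in both libraries. Cyb5a, the cytochrome b5 that passes electrons to some P450 enzymes, had 1626 and 2872 TPM and was not called. Por, the cytochrome P450 reductase, had 27.8 and 127 TPM, and Cyb5r3, the reductase of cytochrome b5, 28.1 and 221. Both were called higher in library 2, with log2 folds of 2.95 and 1.96, as were 32.7% of all tested genes. Library 1 therefore held 25.6 times as much TPM of Cyp4a10 as of Por, and library 2 held 7.11 times as much. After the GC curve 0 of the 3 electron donor genes were called, and 14.4% of all genes were.

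Of 8 genes for enzymes that carry the hydroxylated acids further, 6 were detected in both libraries. Of 7 tested genes for the oxidation of omega-hydroxy fatty acids 1 was higher in library 2, 1 lower and 5 not called, with a median log2 fold of −0.14 against 0.04 for all tested genes. Over all tested genes 32.7% were called higher and 23.8% lower. Aldh1a1, a cytosolic aldehyde dehydrogenase, had 995 and 1047 TPM, and Adh1, the main liver alcohol dehydrogenase, 445 and 2159. Adh5 had 182 and 304 TPM, and Aldh3a2, the fatty aldehyde dehydrogenase of the endoplasmic reticulum, 120 and 204. Of these Adh1 was called, with a log2 fold of 1.63.

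Of 14 tested genes for the uptake and oxidation of dicarboxylic acids in peroxisomes 4 were higher, 2 lower and 8 not called, with a median of 0.01. The shares over all tested genes were 32.7% higher and 23.8% lower, so the calls on this list are not particular to it. Scp2, a sterol carrier and thiolase, had 860 and 2160 TPM, and Slc27a2, a very long chain acyl-CoA synthetase, 395 and 918. Crot, the peroxisomal carnitine octanoyltransferase, had 658 and 503 TPM and was called lower with a log2 fold of −1.28. After the GC curve 1 of these genes was called higher and 2 were called lower, where 6.98% and 7.39% of all genes were.

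Of 18 PPAR-alpha targets outside the Cyp4 family, 15 were detected in both libraries, as was Ppara. Ppara had 12.0 and 41.8 TPM, and its partner Rxra 9.87 and 101 TPM. Of 7 tested genes for PPAR-alpha and partners 2 were higher, 1 lower and 4 not called, with a median of −0.48. Of the 16 targets tested 3 were higher, 0 lower and 13 not called, with a median of 0.67. For both lists the shares over all tested genes were 32.7% higher and 23.8% lower, with a median of 0.04. The liver fatty acid binding protein gene Fabp1 had 2625 and 8641 TPM and was not called. Hadhb, a subunit of the mitochondrial trifunctional protein, had 253 and 158 TPM and was not called. Plin2, which coats lipid droplets, had 49.0 and 334 TPM and was called higher with a log2 fold of 2.10. Total-count scaling called 9 of the 16 higher, where it called 41.9% of all tested genes higher. After the GC curve 2 of 15 were called higher, where 6.98% of all genes were.

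Of 10 regulators of sex-dependent liver expression, the class that acts on the Cyp4a12 genes, 9 were detected in both libraries. The growth hormone receptor gene Ghr had 354 and 248 TPM, and Hnf4a, a nuclear receptor of hepatocytes, 49.7 and 172. Of 10 tested genes 4 were higher, 4 lower and 2 not called, with a median log2 fold of 0.43. Among all tested genes 32.7% were called higher and 23.8% lower, with a median of 0.04. After the GC curve 1 of 9 was called higher and 0 lower, where 6.98% and 7.39% of all genes were. Socs2, a feedback inhibitor of growth hormone signalling, had 21.7 and 18.7 TPM, and Stat5b, which carries that signal to the nucleus, 4.85 and 23.8.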

How the data were processed

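Per the file headers and descriptions, the authors aligned polyA RNA-seq to mm10 and quantified it with annotation M4. Not given in the sources used here: tool, aligner and strandedness. They deposited expected counts (estimated fragments, not normalised), TPM, FPKM and isoform shares in percent, per library. Their gene counts can be fractional. Among the members they were so for Cyp4a10, Cyp4a12a, Cyp4a12b, Cyp4a31, Cyp4a32 and Cyp4v3, and whole for Cyp4a14 and the Cyp4f members. Symbols, coordinates and transcripts came from GENCODE M21 (GRCm38, 42462 of 43346 genes matched), and promoters from RefSeq (GRCm38.p6).

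After rounding, genes with 20 or more counts over both libraries were scaled with TMM (edgeR 4.0.16, prior count 0.5). With 1 library on each side, an exact binomial test with Benjamini-Hochberg adjustment replaced the quasi-likelihood test. On simulated data (12728 genes) it recovered 98 of 98 genes changed 4-fold and 102 of 102 changed 8-fold, with 5 false calls. Recovery was not broken down by count, so it says nothing for genes with counts as low as those of Cyp4a12a and Cyp4a12b. Both simulated libraries were drawn from 1 shared profile with counting error only and were compared by total counts. TMM scaling, a trend of fold with GC content and a difference in mitochondrial share were not simulated. The simulation therefore gives no rate of false calls for the real libraries. Intervals are 95% exact binomial ones and cover counting error only. Alternatives were DESeq2 1.42.0 size factors, total-count scaling, other count minimums, the ratio of deposited TPM or FPKM and a loess curve on GC (span 0.3). GC content used transcripts whose M21 length lay within 10% of the deposited one. Coding sequences were aligned as nucleotides, and protein identity was not analysed here. A transcript's coding sequence was translated only to find the heme-pocket signature. Members, lists, tests and thresholds were chosen with earlier results of these data known. All members are named, with up to 4 genes of highest mean TPM per other list and, where a sentence needs it, genes without a count; some genes under this rule are not reported here. The 1-point GC window, the isoform thresholds, the 60-base windows and the tally of signatures by transcript were chosen after values were seen.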

Additional observations from a re-analysis of the deposited data

How the results depend on the processing

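Under DESeq2 size factors and without a count minimum, the calls of all 10 members were as under TMM, and with a minimum of 200 counts so were those of the 8 members still tested (Cyp4a12a and Cyp4a12b left out), while genes called overall numbered 4730 against 7190. Of the 10 members, Cyp4a32 kept direction and call in all 6 alternatives, and Cyp4a12a in each one in which it was tested. Total-count scaling left 3 members higher and 0 lower, and reversed Cyp4a10 to 0.031. The ratio of TPM, a fold without a test, left 4 higher and 0 lower and reversed Cyp4a10 (0.34), Cyp4a14 (0.26) and Cyp4a31 (0.52). It shifted the median of all genes to 0.88. After the GC curve 0 members were called (0 higher, 0 lower), Cyp4a14 was reversed to 0.11, calls among the pathway genes fell from 16 to 6, and genes called overall were 1734. The cause of these moves was not tested, beyond the fewer genes under a higher minimum. Leaving out mitochondrial genes and their copies raised the members' mean share of TPM from 0.183% to 0.344%. Taking each library alone gave summed TPM from 1543 to 2117 and shares from 0.154% to 0.212%. Between 8 and 10 members were detected in both libraries at thresholds from 5 to 0.1 TPM. No paired analysis was possible because both libraries belong to 1 group. With 2 technical libraries of 1 mouse, no spread between animals is known, and the low counts of Cyp4a12a and Cyp4a12b limit their folds.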

Other observations

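Cyp4a10, Cyp4a12a, Cyp4a12b, Cyp4a14 and Cyp4a31 had no entry among the RefSeq promoters, so nothing was searched for them. The RefSeq promoter table, with 250 bases before and 50 after each start, held 8 promoters of 5 members: Cyp4a32, Cyp4f13, Cyp4f14 (4 starts with overlapping windows), Cyp4f15 and Cyp4v3. The core receptor motif AGGTCA was in none of the 8 on either strand, and in 16.3% of 32851 promoters of the same length. The direct repeat of that motif with any 1 base between its copies was likewise in none of the 8, and in 0.0396% of all. At so low a share its absence from 8 promoters was to be foreseen and tells nothing particular about these genes. The Cyp4v3 promoter held 17 CpG dinucleotides and those of the other 4 genes 0 to 6, where the median over all promoters was 7. The absence of a match says only that these letters are not in these windows.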
